A study of Mus musculus with 12 samples.

Results

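The 6 genes described here encode the ligands and receptors of the angiopoietin and Tie system and of the apelin system in mouse blood and lymph vessels. They are Angpt1, Angpt2, Tek, Tie1, Apln and Aplnr, taken by gene symbol from 52550 gene rows, and all 6 were among the 17700 rows that passed the filter on low counts. Apln was selected on its rise on the scaffold, so its values in every comparison that uses an M medium group are given as a description with no test. The other 5 genes belong to the same signalling families. RNA was sequenced from 12 libraries in 4 groups of 3. All 4 groups are of WT genotype. M scaffold held primary intestinal muscle layer cells, grown for 28 days on a scaffold of electrospun gelatin in M medium. M plate held such cells in the same medium on a well plate, also for 28 days. M medium, a differentiation medium by its label, is Advanced DMEM/Ham's F-12 with N2, B27 without vitamin A, N-acetylcysteine, HEPES, GlutaMAX and ABAM. It also holds Noggin (100 ng/mL), which blocks BMP signals, R-spondin1 (1 µg/mL), which enhances Wnt signals, and Y27632 (10 µM). P plate held the cells for the same time on a well plate in P medium, a proliferation medium of DMEM with 10% FBS and ABAM. Strips were intestinal muscle that was not cultured, the positive control of the study, although their labels also carry day 28 and the name of the cultured cells. The replicates are called biologically independent in the series text. The sources used here give neither age nor strain, nor whether separate animals were used, so p-values measure the spread between these libraries.

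Angiopoietin 1 is the ligand that activates the receptor tyrosine kinase Tie2, which the gene Tek encodes, and it is made mainly by mural and other mesenchymal cells around vessels. Angiopoietin 2 is made and stored by endothelial cells, where it opposes or partly replaces angiopoietin 1 on Tie2, and it is needed for growing lymph vessels. Tie1 binds no angiopoietin tightly and modulates Tie2 from within the same complex. Apelin is a secreted peptide of sprouting endothelial tip cells and of cells short of oxygen, and it acts on the G protein-coupled receptor that Aplnr encodes, which is known from venous and other endothelium.

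The libraries held 21396485 to 116643512 counts assigned to genes. A gene with no count could hold up to 3 counts, which was 0.0257 to 0.140 CPM across libraries before TMM scaling. In all other values, CPM is the count of a gene relative to the TMM-scaled total of its library. That floor covers counting error alone, because reads that carry no molecular identifier need not be separate molecules. The smooth muscle genes that mark the labelled tissue were present, with 8 list genes that summed to 4808 to 13740 CPM in M scaffold, 3684 to 6318 in M plate, 5779 to 11340 in P plate and 39650 to 41950 in strips. The 14 endothelial list genes summed to 495.2 to 1789 CPM in M scaffold, 2509 to 2849 in M plate, 94.9 to 150.2 in P plate and 208.1 to 360.1 in strips. Eng, Kdr, Flt1 and Esam made up most of the P plate sum, while Pecam1 and Cdh5 reached at most 0.848 and 0.438 CPM there. Emcn had no count in P plate replicates 2 and 3, and Robo4 had none in P plate replicate 1. A pair of libraries stood apart from their groups. M scaffold replicate 3 had the lowest endothelial sum of its group and 5250 CPM over 16 hypoxia list genes, against 1494 and 1809 in replicates 2 and 1. It was also the deepest library, with 116643512 counts assigned to genes, against 34273262 and 32477783 in replicates 2 and 1. P plate replicate 1 had 18570 CPM over 8 macrophage list genes, against 1943 and 3239 in replicates 3 and 2. Results that rest on these libraries are given with and without them.

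Sequence upstream of the start was at hand for 3 of the 6 genes, Tek, Tie1 and Apln, from RefSeq in the build GRCm38.p6. It is shown for the receptors because their RNA was high in the same groups, and for Apln because it is the gene selected on the scaffold. The letters searched were GGAA, the core that ETS factors of endothelial genes read, on both strands (TTCC on the other strand, with no overlap between matches), and they stand in capitals. The Tek and Tie1 stretches are the 30 bases around the match nearest the RefSeq start, in Tek at 72 to 43 bases before it (chr4:94739217-94739246, plus strand) and in Tie1 at 30 to 1 bases before it (chr4:118489850-118489879, minus strand). The RefSeq start of Tie1 lies inside the GENCODE gene given further on, so this stretch is within that gene. The Apln stretch is the whole window of 250 bases before the start (chrX:48034854-48035103, minus strand).
Tek: gatacccctattgTTCCtgaaaatgctgac
Tie1: acaggcgacaactcTTCCcaccctctctcc
Apln: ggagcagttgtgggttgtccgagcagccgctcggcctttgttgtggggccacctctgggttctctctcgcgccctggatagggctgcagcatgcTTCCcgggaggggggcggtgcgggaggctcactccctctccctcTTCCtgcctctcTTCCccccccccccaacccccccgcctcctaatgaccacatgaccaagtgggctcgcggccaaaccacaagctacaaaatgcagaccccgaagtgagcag
The 250-base windows held 7 matches in Tie1, 2 in Tek and 3 in Apln. Among 32851 windows of the same length 93.4% held at least 1 match, with a median of 3, so a match by itself sets none of these genes apart. The core letters of hypoxia-inducible factor sites, ACGTG or GCGTG on either strand, were in none of the 3 windows and in 38.6% of all windows. Only these 250 bases were searched, so it is not known whether such letters lie elsewhere in or near these genes.

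In M plate, 4 of 5 genes tested were higher than in P plate, namely Angpt1, Angpt2, Tek and Tie1, and Aplnr was not called. Genes were called at a Benjamini-Hochberg adjusted p under 0.05 in the quasi-likelihood test of edgeR, and 24.9% of all genes were called in M plate against P plate, 14.3% higher and 10.6% lower. The same 4 of 5 were higher in M scaffold than in P plate, where 24.7% of all genes were called, 15.1% higher and 9.61% lower. Both comparisons use the same P plate libraries. Between M scaffold and M plate none of the 5 was called, where 3.18% of all genes were, 1.53% higher and 1.64% lower. Aplnr alone had an unadjusted p under 0.05 there, and DESeq2 also called 0 of 5. In bulk RNA, fewer cells of a type and less RNA per cell cannot be told apart, which holds for all that follows.

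Against strips the members went different ways. In M plate all 5 were called, Angpt2, Tek and Tie1 higher and Angpt1 and Aplnr lower, where 54.9% of all genes were called, 26.5% higher and 28.4% lower. In M scaffold 3 of 5 were called, Angpt2 and Tie1 higher and Aplnr lower, where 52.1% of all genes were called, 24.5% higher and 27.6% lower. In P plate 4 of 6 were called and all 4 were lower, namely Angpt1, Tek, Tie1 and Aplnr, where 63.1% of all genes were called, 30.5% higher and 32.7% lower. More genes than not differed from strips in each of these comparisons, so counts of members near these shares are no result about the members.

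**Figure D1:**
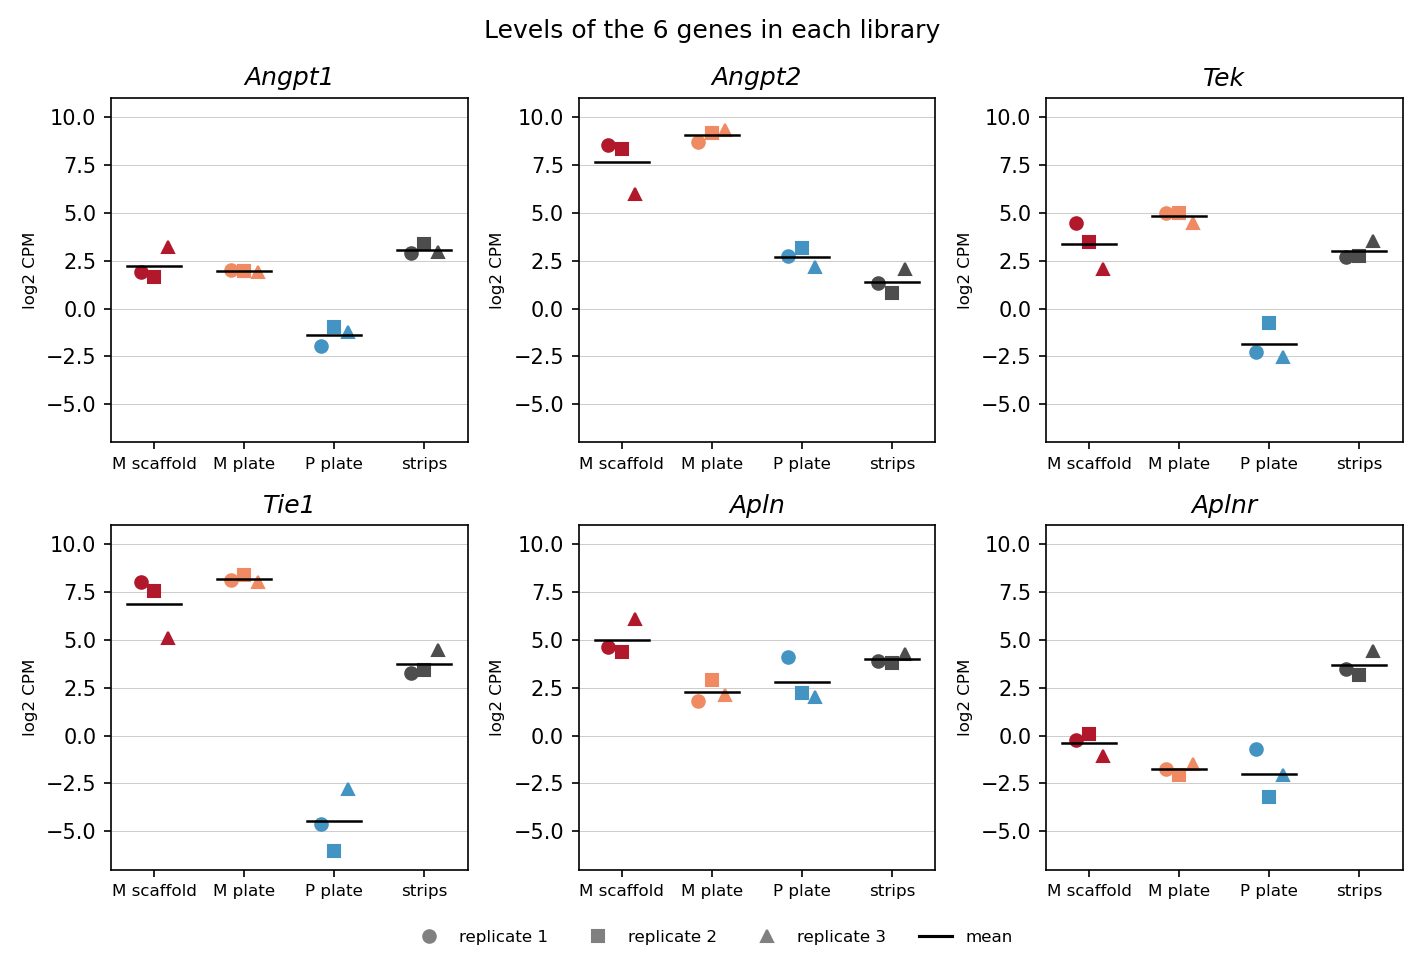
Level of each of the 6 genes in each of the 12 libraries, as log2 CPM with a pseudocount of 0.5 counts, by group from M scaffold to strips, with replicates as symbols and the group mean as a black line. Tie1 and Angpt2 reach their lowest levels in different groups, Tie1 in P plate (0 to 0.127 CPM) and Angpt2 in strips (1.71 to 4.16 CPM), and M scaffold replicate 3 is low for Angpt2, Tek and Tie1 and high for Apln.

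Angpt1, the activating ligand of Tie2 (ENSMUSG00000022309, chromosome 15, 42424723 to 42676977, minus strand, GRCm38), was a low-abundance transcript throughout. It stood at 3.69, 3.07 and 9.19 CPM in M scaffold replicates 1 to 3, at 4.07, 3.88 and 3.77 CPM in M plate, at 0.246, 0.492 and 0.414 CPM in P plate and at 7.39, 10.4 and 7.87 CPM in strips. P plate lay below every other library, and M scaffold overlapped both M plate and strips because of replicate 3. The level in M plate was 10.2-fold that in P plate (log2 fold change 3.35 ± 0.44 SE, edgeR adjusted p = 0.000473), and that in M scaffold was 13.9-fold that in P plate (3.801 ± 0.45, adjusted p = 0.000173; 3.14, still called, without M scaffold replicate 3). No P plate library came near either M medium group. Against strips, P plate was lower by a log2 fold change of -4.47 ± 0.46 (edgeR adjusted p = 1.77e-05). M plate was lower than strips by -1.13 ± 0.38 (edgeR adjusted p = 0.0284), a call that was lost without any 1 of the M plate libraries (adjusted p = 0.0642, 0.0733 and 0.0783) or without strips replicate 2 (0.0822). The difference between M scaffold and strips did not pass (-0.67 ± 0.38, edgeR adjusted p = 0.158), but without M scaffold replicate 3 the difference was -1.33 and was called (edgeR adjusted p = 0.00359). M scaffold and M plate overlapped, and the value of 0.46 ± 0.38 between them turned to -0.21 without M scaffold replicate 3, neither of which was called. An antisense gene of unknown role, Gm17473, overlaps Angpt1 and averaged at most 0.013 CPM in any group.

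Angpt2, the endothelial antagonist or context-dependent agonist of Tie2 (ENSMUSG00000031465, chromosome 8, 18690263 to 18741562, minus strand), showed a different order, with the M medium cultures on top and strips at the bottom. It reached 379.8, 328 and 62.9 CPM in M scaffold and 422, 577 and 650.0 CPM in M plate. P plate held 6.68, 8.79 and 4.46 CPM, and strips held 2.49, 1.71 and 4.16 CPM. No library of either M medium group overlapped P plate or strips, and replicate 3 of M scaffold was the lowest of the 6 M medium libraries. M plate was 192-fold above strips (log2 fold change 7.58 ± 0.73, edgeR adjusted p = 2.8e-05) and 82.7-fold above P plate (6.37 ± 0.69, adjusted p = 0.00014). M scaffold was 89.8-fold above strips (6.49 ± 0.70, edgeR adjusted p = 7.05e-05) and 38.7-fold above P plate (5.27 ± 0.66, adjusted p = 0.000244). Between M scaffold and M plate the libraries did not overlap, yet the difference of -1.10 ± 0.55 did not pass (edgeR adjusted p = 0.28), and it was -0.63 without M scaffold replicate 3. P plate against strips stood at 1.22 ± 0.58 without a call (edgeR adjusted p = 0.0891), with no overlap of libraries. That call appeared when only the 6 libraries compared were fitted (adjusted p = 0.0478 in edgeR) and without M scaffold replicate 3 (adjusted p = 0.0104). Mcph1, a gene of DNA damage signalling, overlaps Angpt2 on the other strand and averaged 13.4, 18.2, 13.97 and 9.004 CPM in M scaffold, M plate, P plate and strips. The sources used here do not state the strand setting of the counting, so at the low Angpt2 levels of P plate and strips the reads of this pair may not be fully separated.

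Set against each other per kilobase of exon, the 2 ligands changed places between culture and tissue. The ratio of Angpt2 to Angpt1 was 145, 149.9 and 9.66 in M scaffold, 146, 209 and 243 in M plate, 36.3, 24.5 and 14.7 in P plate, and 0.477, 0.235 and 0.746 in strips. Angpt2 thus exceeded Angpt1 in all 9 cultured libraries and was below it in all 3 strips libraries. The P plate ratios divide by only 9, 16 and 13 counts of Angpt1, so their size is imprecise. On the log2 scale the ratio averaged 5.89 ± 2.27 in M scaffold, 7.61 ± 0.38 in M plate, 4.56 ± 0.66 in P plate and -1.19 ± 0.84 in strips (SD, n = 3 each). Each culture differed from strips with p = 0.1 in an exact two-sided permutation test of 3 against 3 libraries, the smallest p this design allows. M scaffold and M plate overlapped, with a difference of -1.71 (exact permutation p = 0.2) that was -0.40 without M scaffold replicate 3. Within pairs of libraries with the same number, M scaffold was lower by -0.0089, -0.48 and -4.65 (exact sign-flip p = 0.25, the smallest that 3 pairs allow).

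Tek, which encodes Tie2, the receptor both ligands share (ENSMUSG00000006386, chromosome 4, 94739289 to 94874976, plus strand), was close to absent in P plate. It stood at 22.4, 11.3 and 4.18 CPM in M scaffold, at 31.8, 31.3 and 22.2 CPM in M plate, at 0.191, 0.584 and 0.159 CPM in P plate and at 6.54, 6.67 and 11.4 CPM in strips. M plate and P plate did not overlap, and M scaffold spanned the levels of strips. Tek was 90.9-fold higher in M plate than in P plate (log2 fold change 6.51 ± 0.72, edgeR adjusted p = 0.000157) and 40.2-fold higher in M scaffold (5.33 ± 0.69, adjusted p = 0.000323). These values were 7.31 and 6.13 without P plate replicate 2, and the M scaffold value was 4.62 without M scaffold replicate 1, all still called. P plate was 26.4-fold lower than strips (-4.72 ± 0.68, edgeR adjusted p = 0.000171), and the value was -5.53 without P plate replicate 2. M plate was higher than strips by 1.78 ± 0.55 (edgeR adjusted p = 0.0177), a call lost without strips replicate 1 (adjusted p = 0.0694) or 2 (0.0637). M scaffold against strips gave 0.61 ± 0.54 (edgeR adjusted p = 0.362), 1.02 with a call (adjusted p = 0.0467) without both libraries that stood apart, and -0.10 with no call without M scaffold replicate 1. M scaffold against M plate gave -1.18 ± 0.54 with overlap at 1 library (edgeR adjusted p = 0.237), -0.75 without M scaffold replicate 3 and -1.88 without M scaffold replicate 1, neither called.

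Tie1, the partner receptor (ENSMUSG00000033191, chromosome 4, 118471191 to 118490061, minus strand), had the widest span of the 6 genes. It reached 258, 186 and 34.1 CPM in M scaffold, 282, 339.5 and 259 CPM in M plate, and 9.66, 10.9 and 22.5 CPM in strips. The 3 P plate libraries held 1, 0 and 4 counts, which is 5 counts in all and at most 0.127 CPM. M plate against strips was 4.35 ± 0.67 on the log2 scale and M scaffold against strips 3.46 ± 0.65, both called by edgeR (adjusted p = 0.000403 and 0.00146). The fitted log2 fold changes against P plate, 12.45 ± 1.08 for M plate and 11.56 ± 1.07 for M scaffold (edgeR adjusted p = 4.83e-05 and 4.23e-05), rest on those 5 counts, so their size is imprecise. P plate was also lower than strips (-8.10 ± 1.04, edgeR adjusted p = 7.64e-05). Without P plate replicate 3, which held 4 of the 5 counts, the values were 14.07, 13.21 and -9.76, all still called. M scaffold lay below M plate in all 3 libraries, with a difference of -0.88 ± 0.59 that was not called (edgeR adjusted p = 0.426) and that was -0.40 without M scaffold replicate 3.

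Both receptors were thus high in the M medium groups and near the floor in P plate, and the ratio of Tie1 to Tek was above that of strips in all 6 M medium libraries. Per kilobase of exon, Tie1 stood 11.02-, 15.8- and 7.79-fold above Tek in M scaffold and 8.50-, 10.4- and 11.2-fold above it in M plate, against 1.41-, 1.56- and 1.89-fold in strips. The log2 ratio averaged 3.47 ± 0.51 in M scaffold, 3.32 ± 0.20 in M plate and 0.69 ± 0.21 in strips (SD, n = 3 each). It differed from strips in M scaffold by 2.78 and in M plate by 2.63, without overlap (exact permutation p = 0.1, the smallest possible). M scaffold and M plate overlapped, with a difference of 0.15 (exact permutation p = 0.8, and sign-flip p = 0.75 within pairs). The ratio in P plate is not given because both genes were near the floor there.

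**Figure D2:**
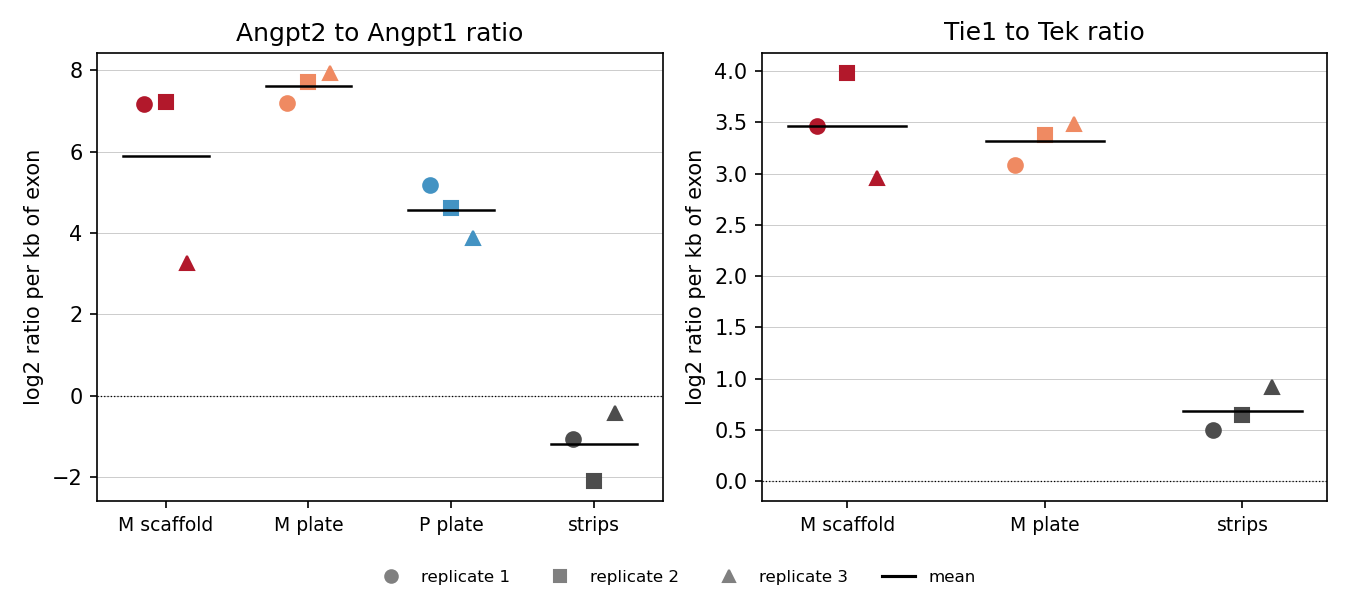
Log2 ratio per kilobase of exon of Angpt2 to Angpt1 (left, 4 groups) and of Tie1 to Tek (right, 3 groups, since both receptors were near the floor in P plate), 1 point per library with the group mean as a black line and 0 meaning equal levels. All cultured libraries lie above 0 for the ligands and all strips below it, and the receptor ratio of strips (0.50 to 0.92) lies below that of both M medium groups (2.96 to 3.98).

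Apln, the apelin gene (ENSMUSG00000037010, chromosome X, 48025146 to 48034853, minus strand), stood at 24.4, 20.7 and 67.5 CPM in M scaffold and at 3.49, 7.38 and 4.40 CPM in M plate. The lowest M scaffold library was above the highest M plate library, which is the difference the gene was picked for. The fitted log2 fold change was 2.88 ± 0.64, and it was 2.15 without M scaffold replicate 3, where Apln reached its highest level. P plate held 17.3, 4.64 and 4.05 CPM, and strips held 15.0, 13.6 and 19.1 CPM. The M scaffold libraries were above those of strips, by 1.24 ± 0.60 on the log2 scale, but by 0.51 without M scaffold replicate 3. The M plate libraries were below those of strips (-1.64 ± 0.61) and overlapped P plate (-0.77 ± 0.60, which turned to 0.23 without P plate replicate 1). Replicates 1 and 2 of M scaffold thus stood just above uncultured muscle, and M plate below it. M scaffold against P plate stood at 2.12 ± 0.62, at 1.38 without M scaffold replicate 3 and at 3.14 without P plate replicate 1. None of these 5 differences carries a test, because the M scaffold and M plate libraries selected the gene.

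The contrast of P plate with strips compares none of those libraries, although they were in the same fit and shared its dispersion. There Apln did not pass (log2 fold change -0.88 ± 0.60, edgeR adjusted p = 0.222), nor with only the 6 libraries compared. Replicate 1 of P plate, the library with high macrophage genes, lay within the range of strips at 17.3 CPM. Without it, P plate was lower than strips by -1.91 (edgeR adjusted p = 0.00888). Whether the macrophage genes of that library play a part in its Apln level was not tested.

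Aplnr, which encodes the apelin receptor (ENSMUSG00000044338, chromosome 2, 85136225 to 85139923, plus strand), was mainly found in uncultured tissue. It stood at 0.829, 1.06 and 0.478 CPM in M scaffold, at 0.286, 0.228 and 0.346 CPM in M plate, at 0.602, 0.0922 and 0.223 CPM in P plate and at 11.3, 8.88 and 21.5 CPM in strips. Every cultured library lay below every strips library. The receptor was 18.0-fold lower in M scaffold (-4.17 ± 0.57), 47.4-fold lower in M plate (-5.57 ± 0.62) and 44.3-fold lower in P plate (-5.47 ± 0.62) than in strips, with edgeR adjusted p = 0.000249, 5.81e-05 and 3.41e-05. The P plate value was -6.49 without P plate replicate 1, where Aplnr was highest in that group. Counts were low in culture, with 114 reads in all of M scaffold, 41 in M plate and 32 in P plate, against 2475 in strips. M scaffold lay above M plate without overlap, by 1.40 ± 0.57, and this did not pass (edgeR adjusted p = 0.194; 0.0554 to 0.446 over the alternatives). M scaffold against P plate gave 1.30 ± 0.58 (edgeR adjusted p = 0.133), and 2.29 with a call (adjusted p = 0.0195) without P plate replicate 1. M plate and P plate overlapped (-0.10 ± 0.62, edgeR adjusted p = 0.927), and the value turned to 0.88 without P plate replicate 1, also with no call (adjusted p = 0.334). In M scaffold the ligand of this pair was at or above its level in strips while the receptor was far below, and in M plate both were below.

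**Figure D3:**
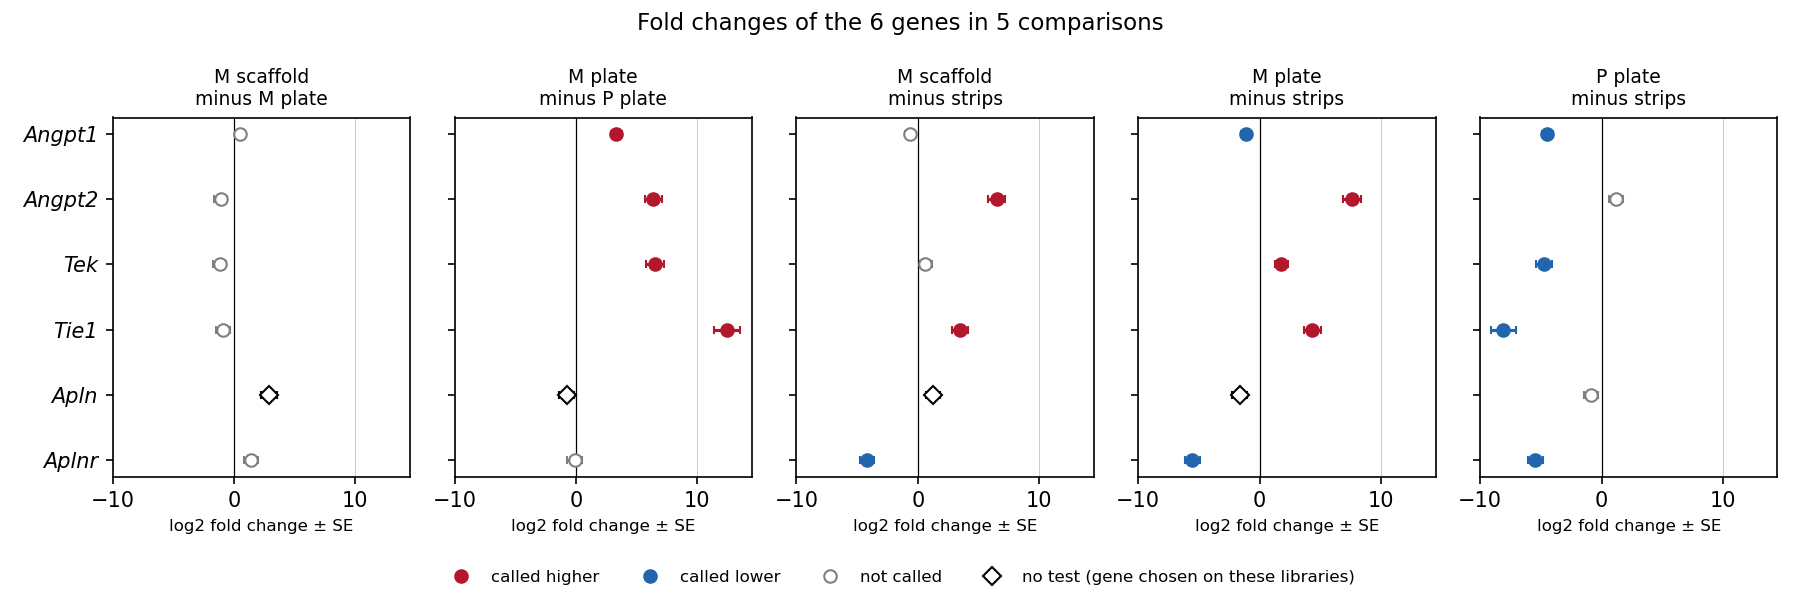
Log2 fold change with its standard error for each of the 6 genes in 5 comparisons, filled where edgeR called it (adjusted p under 0.05) and as an open diamond for Apln where its selection leaves no test. In M plate minus P plate 4 genes lie far to the right (3.35 to 12.45), in M scaffold minus M plate no circle is filled, and Aplnr is lower than strips in all 3 cultures.

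Transcript levels per length put the members in proportion. In M scaffold, Angpt2 averaged 262.5 ± 180.4 TPM and Tie1 123 ± 92.1 TPM, ahead of Apln at 43.4 ± 28.4, Tek at 10.2 ± 7.94, Angpt1 at 3.73 ± 2.21 and Aplnr at 0.790 ± 0.297 TPM (TPM, counts per kilobase of exon scaled to a fixed total, SD, n = 3). In M plate, Angpt2 averaged 568 ± 113 TPM and Tie1 228 ± 33.2 TPM, with Tek at 23.1 ± 4.63 and Apln at 6.18 ± 2.46 TPM. In P plate, Apln averaged 9.43 ± 7.54 TPM and Angpt2 6.44 ± 2.41 TPM, with the other 4 genes below 1 TPM. The order of this pair rests on P plate replicate 1, since Apln held 18.1, 5.6 and 4.57 TPM and Angpt2 5.98, 9.05 and 4.30 TPM in replicates 1 to 3. In strips the 6 genes lay within a narrow range, between 3.05 ± 1.43 TPM for Angpt2 and 20.3 ± 4.08 TPM for Apln.

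Genes of the endothelial list moved with Angpt2, Tek and Tie1 between the cultures, so each member was also set beside that list in the same library. Of the 14 list genes, 11 were called higher in M plate than in P plate and 0 lower, with a median log2 fold change of 6.38 against -0.00436 over all genes tested. Of all genes 14.3% were called higher there and 10.6% lower. Against strips, 10 were called higher and 2 lower in M plate (median 3.39, against -0.00723 over all genes), and 10 higher and 3 lower in M scaffold (median 2.32, against -0.0226). Of all genes 26.5% and 24.5% were called higher in these comparisons, and 28.4% and 27.6% lower. In P plate 9 list genes were called lower than in strips and 1 higher, with a median of -4.04 against -0.0285 over all genes. There 32.7% of all genes were called lower and 30.5% higher. Relative to the mean log2 CPM of the list, Angpt2 averaged 2.53 in M scaffold and 2.86 in M plate, against -2.33 in strips, so it was higher in culture by 4.85 and 5.19 log2 units beyond the list. Tie1 averaged 1.77 in M scaffold and 1.97 in M plate, against 0.02 in strips, which is 1.75 and 1.95 units beyond the list. Tek went the other way, with -1.76 in M scaffold and -1.41 in M plate, against -0.73 in strips. Angpt1 averaged -2.87 in M scaffold and -4.25 in M plate, against -0.63 in strips, and overlapped strips only in M scaffold, through replicate 3. Aplnr averaged -5.51 in M scaffold and -7.98 in M plate, against -0.03 in strips. Except for Angpt1 in M scaffold (exact permutation p = 0.2), each of these differences from strips separated the libraries fully (exact permutation p = 0.1, the smallest possible). Between M scaffold and M plate, Angpt2, Tek and Tie1 differed from the list by -0.34, -0.35 and -0.20 with overlapping libraries (exact permutation p = 0.4, 0.3 and 0.8), while Aplnr differed by 2.47 and Angpt1 by 1.38 without overlap (exact permutation p = 0.1). The Angpt1 value was 0.33 without M scaffold replicate 3. Within pairs of the same number, Aplnr and Angpt1 were higher in M scaffold in all 3 pairs and Tek was lower in all 3 (exact sign-flip p = 0.25 for each, the smallest that 3 pairs allow), and Angpt2 and Tie1 went both ways (p = 0.75 for each). Apln averaged -0.09 in M scaffold and -3.94 in M plate, against 0.26 in strips, and this carries no test. The 8 lymphatic list genes had higher medians over strips than the endothelial list, at 4.36 in M scaffold and 6.54 in M plate. Over strips Angpt2 stood at 6.49 and 7.58 and Tie1 at 3.46 and 4.35 in these groups. Their excess thus depends on the list they are set beside.

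**Figure D4:**
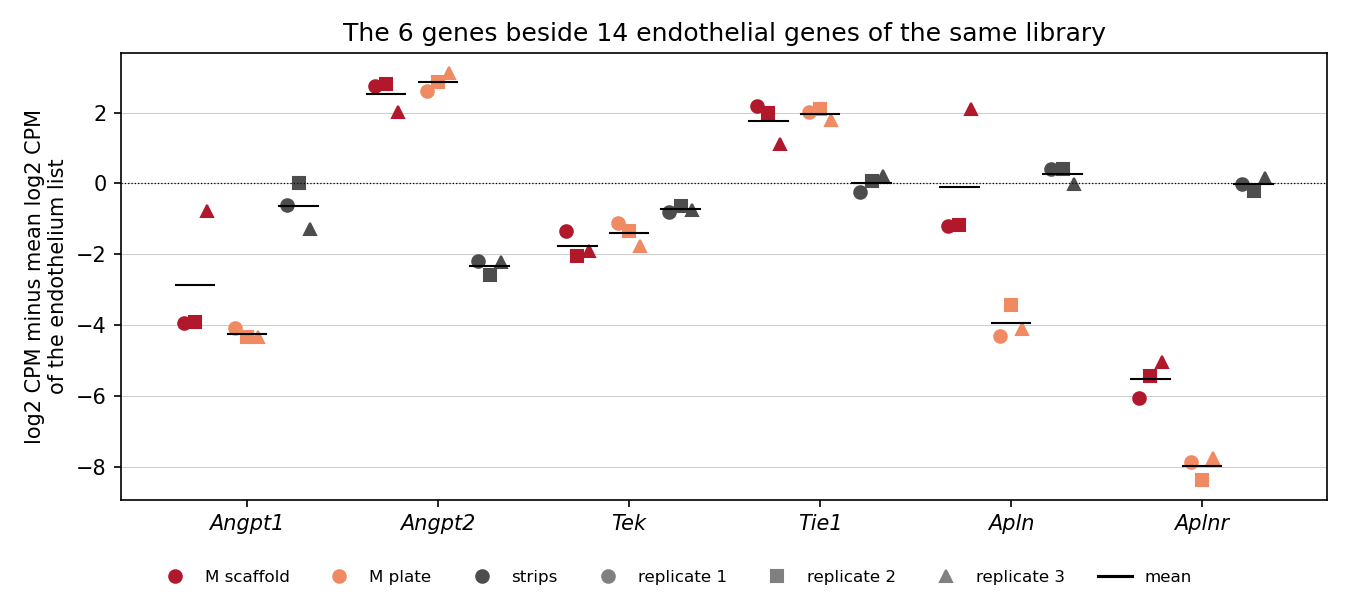
Log2 CPM of each gene minus the mean log2 CPM of 14 endothelial genes of the same library, for M scaffold, M plate and strips, 1 point per library with the group mean as a black line. Angpt2 and Tie1 lie above the list in both M medium groups and near it (Tie1) or below it (Angpt2) in strips, while Aplnr lies at the list level in strips (-0.22 to 0.15) and between -8.35 and -5.02 in the M medium groups.

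Single genes of other vessel lists differed between M scaffold and M plate, where the median over all genes tested was 0.00976 and 3.18% of them were called. Of 8 lymphatic genes, all 8 were higher in M scaffold than in P plate and in M plate than in P plate, and all 8 were also higher than in strips in both, with medians of 6.96 and 8.80 over P plate and 4.36 and 6.54 over strips. Of all genes 15.1% and 14.3% were called higher than in P plate, and 24.5% and 26.5% higher than in strips. Between M scaffold and M plate 2 of the 8 were lower, Stab2, a scavenger receptor (-3.56 ± 0.72, edgeR adjusted p = 0.0324), and Reln, the secreted protein reelin (-2.23 ± 0.39, adjusted p = 0.0243), with a list median of -2.18. Of 7 arterial genes 2 were lower, the connexin gene Gja4 at 0.369, 0.217 and 0.198 CPM in M scaffold against 9.74, 3.78 and 8.58 CPM in M plate (-4.85 ± 0.59, edgeR adjusted p = 0.00896), and the kinase gene Bmx (-4.70 ± 0.95, adjusted p = 0.0331). Of 12 tip cell genes 2 were higher, 0 lower and 10 not called, with a median of -0.12. Kcne3, a potassium channel subunit used as a tip cell marker, stood at 12.6, 10.3 and 4.03 CPM in M scaffold against 0.0286, 0.203 and 0.0786 CPM in M plate, without overlap (6.41 ± 0.63, edgeR adjusted p = 0.00359). Esm1, a secreted proteoglycan of sprouting endothelium, was the other (1.61 ± 0.36, edgeR adjusted p = 0.0452). Among those not called, Igfbp3 lay below M plate without overlap (483, 1069 and 1357 CPM against 2398, 2133 and 3005 CPM). So did Pdgfb (16.03, 14.84 and 27.27 CPM against 39.75, 43.37 and 68.54 CPM). Plaur lay above M plate without overlap (32.15, 33.47 and 25.83 CPM against 21.68, 25.16 and 24.28 CPM). The calls of Kcne3 and Gja4 held in all 19 alternatives run, whereas those of Stab2, Reln, Bmx and Esm1 held in 12, 15, 11 and 8 of the 19 and were each lost without any 1 of the M plate libraries. Stab2 was also lost without M scaffold replicate 1 or any 1 of the strips libraries, Reln without M scaffold replicate 2, Bmx without any 1 of the M scaffold libraries or strips replicate 1, and Esm1 without any 1 of the M scaffold or strips libraries. With the replicate block over all 12 libraries Bmx was also lost (adjusted p = 0.0532), and with no filter on low counts Esm1 was (adjusted p = 0.059). Of the 14 endothelial genes only Emcn, an endothelial sialomucin, was lower (-2.64 ± 0.49, edgeR adjusted p = 0.0276, lost without M scaffold replicate 1 or 3 or any 1 of the M plate libraries), with a list median of -1.04.

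M scaffold replicate 3 lay farthest from M plate for Angpt2, Tek, Tie1 and Apln. Relative to the M plate mean, Angpt2 stood at -0.51, -0.72 and -3.10 log2 units in M scaffold replicates 1 to 3, Tek at -0.33, -1.32 and -2.75, and Tie1 at -0.18, -0.65 and -3.10. The endothelial list mean stood at -0.40, -0.68 and -2.25 and the lymphatic list mean at -1.52, -1.94 and -4.38 in the same libraries. The endothelial list mean and these 3 members were thus lowest in replicate 3 together. Not every gene of that list was, since Flt1 (53.9, 91.9 and 112 CPM in replicates 1 to 3) and Vwf (3.38, 1.86 and 5.16 CPM) were highest there. Apln stood at 2.33, 2.09 and 3.798 units, and the hypoxia list mean at 0.36, -0.14 and 2.07. Slc2a1, a glucose transporter gene of that list, was at 84.7, 73.8 and 529 CPM in M scaffold against 42.1, 59.1 and 46.0 CPM in M plate. Adm, another gene of that list, did not rise, at 34.2, 164 and 138 CPM in M scaffold against 137, 249 and 249 CPM in M plate. Neither gene was called. The hypoxia list had 1 of 16 genes higher in M scaffold than in M plate (Egln3, an oxygen-sensing prolyl hydroxylase, 2.38 ± 0.54, edgeR adjusted p = 0.0456, lost without M scaffold replicate 1 or 3 or any 1 of the M plate or strips libraries, and with the replicate block over all 12 libraries, where adjusted p = 0.0814, and over the 6 compared, where it was 0.0972 with the block and 0.0764 with no block) and 0 lower, with a median of 1.22 that was 0.23 without replicate 3. In replicates 1 and 2 the hypoxia list mean, within 0.36 log2 units of the M plate mean, joined genes that went different ways. There Slc2a1 was above every M plate library, and Ndrg1, also of that list, was below every one (421 and 432 CPM against 601.5, 729 and 690 CPM). In M plate against P plate the hypoxia list had 10 of 16 genes lower, 0 higher and a median of -1.80. Of all genes 24.9% were called there, and 10.6% were called lower. The hypoxia list summed to 3944, 4040 and 4180 CPM in P plate replicates 1 to 3, where Apln stood at 17.3, 4.64 and 4.05 CPM. The part of the hypoxia genes, of the endothelial genes and of replicate 3 in the Apln level was not tested.

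**Figure D5:**
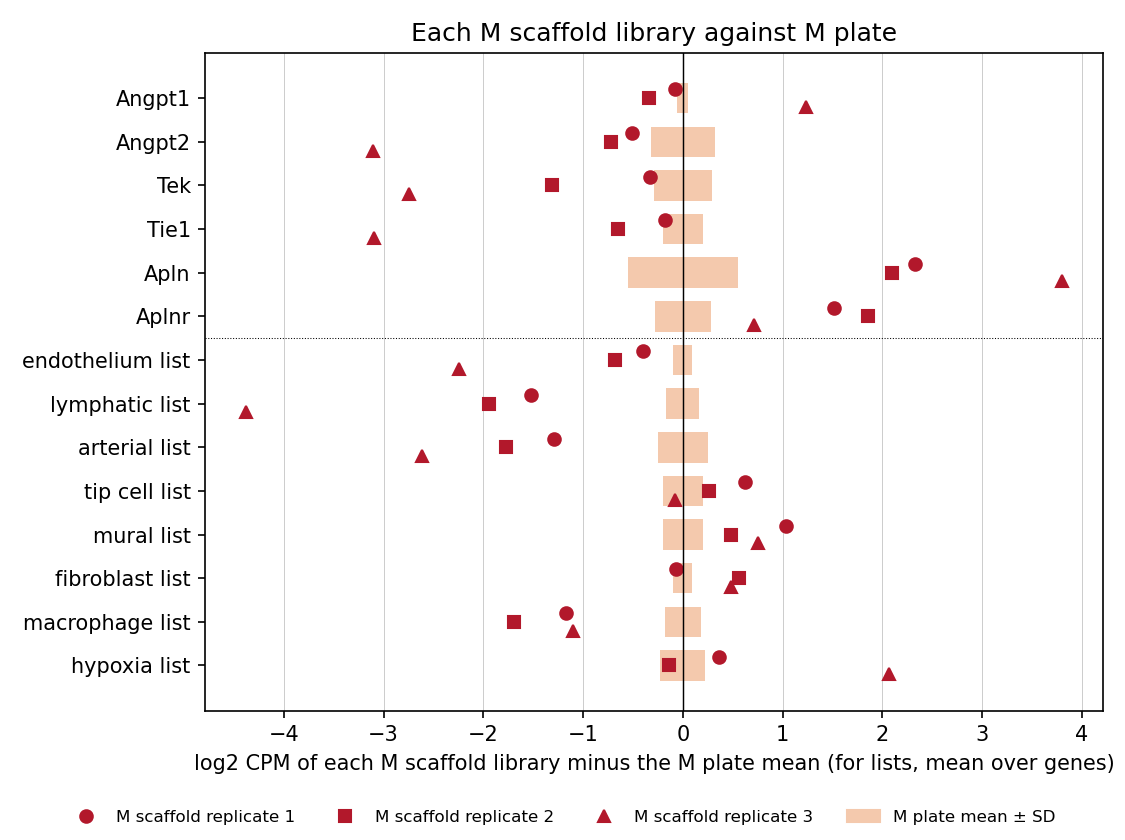
Each M scaffold library minus the M plate mean, in log2 CPM, for the 6 genes and for the mean over the genes of 8 lists, with the shaded box as the M plate mean ± SD. Replicate 3 lies far left for Angpt2, Tek, Tie1 and the endothelial and lymphatic lists and far right for Apln, Angpt1 and the hypoxia list, while all 3 libraries lie right of 0 for Apln, Aplnr and the mural list.

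Among 16 further genes of the angiopoietin and Tie pathway, 5 were higher and 2 lower in M plate than in P plate, and 4 were higher and 1 lower in M scaffold than in P plate, with medians of -0.00145 and 0.07, against -0.00436 and -0.0323 over all genes. Of all genes 24.9% and 24.7% were called in these comparisons. With list medians near those over all genes, the counts are no result about the list. Ptprb, the phosphatase that dampens Tie2, led them at 48.7, 25.7 and 5.14 CPM in M scaffold, 135, 124 and 112 CPM in M plate, 0.821, 0.0922 and 0.446 in P plate, and 11.96, 8.88 and 26.0 CPM in strips. It was higher in M plate than in P plate by 8.06 ± 0.98 (edgeR adjusted p = 0.000273) and than in strips by 2.98 ± 0.74 (adjusted p = 0.00604). Rasip1, an endothelial Ras-interacting protein needed for vessel lumens, was higher in M plate by 5.72 ± 0.59 (edgeR adjusted p = 0.000104), and Klf2, a flow-responsive endothelial transcription factor, by 0.97 ± 0.24 (adjusted p = 0.0159, lost without M plate replicate 1 or P plate replicate 3). Between M scaffold and M plate none of the 16 was called, with Ptprb at -2.23 ± 0.72 (edgeR adjusted p = 0.11, and called by DESeq2 with adjusted p = 0.0333).

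Svep1, a large matrix protein known as a ligand of Tie1 in lymphatic growth, was among the abundant genes of this pathway in culture. It stood at 982, 1414 and 888 CPM in M scaffold, 1247, 1088 and 782 CPM in M plate, 328, 477 and 382 in P plate and 30.8, 25.1 and 28.2 CPM in strips. The cultures did not overlap strips, and the M medium groups did not overlap P plate. Its log2 fold change over strips was 5.29 ± 0.27 in M scaffold, 5.21 ± 0.27 in M plate and 3.82 ± 0.26 in P plate (edgeR adjusted p = 4e-06, 3e-06 and 1.41e-06), and M plate exceeded P plate by 1.39 ± 0.23 (adjusted p = 0.00187). Itgb3, an integrin subunit gene of this list, went the other way, by -3.88 ± 0.41, -3.72 ± 0.41 and -3.19 ± 0.40 in the same 3 comparisons, all called. In all, 7 of the 16 were higher and 1 lower in M scaffold than in strips, 8 and 1 in M plate, and 9 and 4 in P plate, with medians of 0.77, 0.61 and 1.02. Over all genes the medians were -0.0226, -0.00723 and -0.0285, and 52.1%, 54.9% and 63.1% of genes were called, so these counts are no result about the list.

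Angpt4, the third angiopoietin of the mouse, was uneven between libraries and was called in no comparison. It stood at 3.07, 9.22 and 112 CPM in M scaffold, 9.31, 9.21 and 16.7 CPM in M plate, 14.9, 7.34 and 26.1 in P plate and 1.89, 4.29 and 17.4 CPM in strips. The value between M scaffold and M plate was 1.82 ± 1.16 (edgeR adjusted p = 0.402), and over the alternatives it ran between -0.93 and 2.38 without a call. Replicate 3 of M scaffold, high for Apln and Angpt1, was thus also the highest library for this ligand.

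Of 12 further genes of the apelin system, 11 passed the low-count filter and the protease gene Klkb1 did not. In M plate 3 were higher than in P plate and 0 lower, and in M scaffold 4 were higher and 0 lower, with medians of 0.32 and 0.31, against -0.00436 and -0.0323 over all genes, of which 24.9% and 24.7% were called. Nos3, the endothelial nitric oxide synthase downstream of the receptor, was at 11.51, 7.14 and 1.61 CPM in M scaffold, 14.6, 26.7 and 18.7 CPM in M plate, 0.192, 0.707 and 0.606 in P plate and 3.09, 1.92 and 6.32 CPM in strips, and was higher in M plate than in P plate by 5.33 ± 0.81 (edgeR adjusted p = 0.00106). Apela, the second ligand of the apelin receptor, had 0, 0.124 and 0 CPM in M scaffold and 0.0286, 0 and 0.0157 CPM in M plate, no count in P plate, and 0.356, 0.333 and 0.313 CPM in strips. It was lower than in strips in M plate (-4.29 ± 1.12, edgeR adjusted p = 0.0111) and in M scaffold (-3.50 ± 1.02, adjusted p = 0.0198, lost in DESeq2 and without M scaffold replicate 1 or 3 or strips replicate 1), and at least 11.2-fold lower in P plate, taking 3 counts over the group as the floor. None of the 11 was called between M scaffold and M plate, where the median was -0.20. Against strips, 2 were higher and 2 lower in M scaffold, 4 and 2 in M plate, and 3 and 4 in P plate, with medians of 0.233, 0.325 and -0.324. With 52.1%, 54.9% and 63.1% of all genes called in these comparisons, the counts are no result about the list.

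Genes with the nearest profiles over the 12 libraries were ranked among 13691 genes by the root mean square difference of log2 CPM, each profile centred on its own mean. Tie1 was nearest to the endothelial genes Cldn5 (0.63), Gpihbp1 (0.74) and Robo4 (1.06). Tek was nearest to Tril (0.41), Shc3 (0.55) and Sec14l4 (0.55), none of them on the endothelial list, and was farther from Tie1 (2.71) than from Angpt1 (1.58). Angpt1 was nearest to Fxyd1 (0.35), Hif3a (0.41) and Chl1 (0.48), and Angpt2 to D5Ertd615e (0.70), Hoxd9 (0.84) and Ptx3 (0.88). Apln was nearest to Cacng7 (0.63), Arxes2 (0.67) and Islr (0.68), and Aplnr to Fabp7 (0.55), Angptl1 (0.57) and Irx3 (0.58). No member had another member among its 3 nearest genes.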

How the data were processed

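The RNA-seq data are 1 deposited table of raw counts, with Ensembl genes in its lines and 1 column for each of 12 mouse samples. Per the labels' protocols, RNA came from Qiashredder and RNeasy kits and libraries from the TruSeq RNA Library Prep Kit v2. Per the submitters' processing notes, the tool was STAR 2.6.0 and the builds were GRCm38 and mm10. The sources used here name no counting program, annotation or strand setting. They mention 2 technical replicates of each sample without saying how these were joined. The deposited counts are whole numbers that are not normalized. Library sizes and tests exclude 5 summary entries that name no gene. Alignments marked as not unique made up 38.7% to 46.7% of all entries. Replicates differed by more than sampling noise.

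GENCODE M21 gave symbols for 52403 of 52550 gene rows, coordinates and exon lengths. Genes were filtered with filterByExpr (17700 kept), scaled by TMM (factors 0.893 to 1.15) and tested with the edgeR 4.0.16 quasi-likelihood F test in R 4.3.3. All 12 libraries were in 1 fit with the group as the only term (8 residual degrees of freedom). Adjusted p values are Benjamini-Hochberg over 17700 genes, two-sided, called under 0.05. The 6 comparisons are built from 4 groups and share libraries. TPM-like values divide counts by exon length. Log2 CPM and ratios used a pseudocount of 0.5 counts, and ratios an exact permutation test from scipy 1.17.1. The fit was run on simulated counts with the same dispersion for every gene and no library that stood apart. That run does not cover the uneven replicates seen here.

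Replicates numbered alike in M scaffold and M plate deviated together (correlations of 0.158 to 0.279), so there the numbers were taken as pairs. The blocked fit changed no member's call and is given below with the other alternatives: RLE size factors, no filter, DESeq2 1.42.0, only the 6 libraries compared, each library left out, and 3 alternatives added after seeing the data (the block within the 6 libraries compared, leaving out both libraries that stood apart, and ratios within pairs). The members and the 12 gene lists were chosen with earlier results of these data known. Named genes are the members, up to 2 called genes with the largest changes of a list, genes of the 2 pathway lists, and the 3 genes nearest in profile to each member. Some list genes that went against their list are also named. The values of 1 gene of the apelin list are not reported here, though it stays in the counts of that list.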

Additional observations from a re-analysis of the deposited data

How the results depend on the processing

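Over 36 fold changes of the members and 19 alternatives each (684 values), 664 kept their side of the threshold, 10 gained a call, 6 lost one, and for Apln, untested, 2 moved and 2 turned sign, to 0.229 in M plate minus P plate without P plate replicate 1 and 0.228 without both libraries that stood apart (-1.136 to 0.229 with 1 library left out). Of the 664, 657 also kept their sign and 7 turned it with no call either way, for Angpt1 in M scaffold minus M plate (to -0.21), Aplnr in M plate minus P plate (to 0.885) and Tek in M scaffold minus strips (to -0.10). The counts of members called stood at 0 of 5 under each of the 19 alternatives for M scaffold minus M plate and at 4 for M plate minus P plate, and at 4 or 5 for M scaffold minus P plate and 4 to 6 for P plate minus strips. They ran from 3 to 5 for M plate minus strips with 1 library left out, and reached 5 for M scaffold minus strips without both libraries that stood apart. The number of genes called moved more. For M scaffold minus M plate, 562 genes were called (271 higher, 291 lower), against 2032 with DESeq2 (1152 higher, 880 lower), 1068 with only the 6 libraries compared (455 higher, 613 lower), 1355 without both libraries that stood apart, and 18 to 1897 with 1 library left out. The lowest was without M plate replicate 2 and the highest without P plate replicate 1. For M scaffold minus P plate (4375) it was 1791 with only the 6 libraries compared, and for M plate minus P plate (4400) it was 2846, and 2630 to 5188 with 1 library left out. The cause of these shifts was not tested.

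With the replicate block, M scaffold minus M plate called 391 genes over all 12 libraries and 1718 within the 6 libraries compared, and still no member. The ratios and the values beside the endothelial list, taken within pairs, have the same mean differences, and 3 pairs allow no exact p under 0.25. Elsewhere same-numbered libraries did not pair (correlations of -0.0992 to 0.114), and the block within 6 libraries called 915 genes for M scaffold minus P plate and 1300 for M plate minus P plate.

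Setting the members beside the median of the endothelial list, in place of its mean, moved differences from strips with their sign kept. They were -4.35 for Angpt1, 4.45 for Angpt2, -1.42 for Tek, 1.21 for Tie1, -4.94 for Apln and -8.69 for Aplnr in M plate, and 4.45 for Angpt2, -1.44 for Tek and -5.89 for Aplnr in M scaffold. Depth limits Aplnr in culture and Angpt1, Tie1 and Tek in P plate, which rest on few counts.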

Other observations

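Mural genes are known from pericytes, a source of angiopoietin 1. The mural list had its highest sum in strips (2213 to 2541 CPM), as the smooth muscle list did, and Rgs5 alone held 1168 to 1392 CPM there. Pdgfrb went the other way, with a mean of 21.6 CPM in strips against 352 CPM in M scaffold. By the list mean log2 CPM, M scaffold (7.52, 6.98 and 7.24) overlapped strips (6.99, 7.14 and 7.175). The list need not mark pericytes alone. Of the 8 list genes 7 were tested, and 1 was higher in M scaffold than in M plate and 0 lower. It was Kcnj8, a potassium channel subunit of pericytes, at 298, 209 and 225.5 CPM in M scaffold against 61.5, 51.7 and 70.3 CPM in M plate (log2 fold change 2.00 ± 0.36, edgeR adjusted p = 0.0255, held in 15 of 19 alternatives and lost without M scaffold replicate 1 or any 1 of the M plate libraries). The median of the list was 0.74, against 0.00976 over all genes, of which 3.18% were called. The list mean was above that of M plate by 1.03, 0.49 and 0.75 log2 units in M scaffold replicates 1 to 3. Fibroblast genes, 8 in the list, had no call between M scaffold and M plate and a median of 0.71. Smooth muscle genes, also 8, had no call either and a median of 0.93, and their mean was above that of M plate by 1.41 and 1.12 in M scaffold replicates 1 and 3 and stood at -0.15 in replicate 2.

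Kcne3 was also called between the M medium groups and strips, in opposite directions, at 8.08-fold higher in M scaffold (edgeR adjusted p = 0.000828) and 10.54-fold lower in M plate (adjusted p = 0.000899), both held in all 19 alternatives.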
